A study of Mus musculus with 12 samples.

Results

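The acute phase response is the change in plasma proteins that the liver makes during infection or injury. Here 33 of its genes were followed in hepatocytes of male C57bl/6 mice. The mice did or did not carry a hepatic knockout of Rxra, the gene of RXRα, each with and without bexarotene. The members were the rows of the deposited table whose mouse symbol is on the list of acute phase and hepatic inflammation genes. All 33 were found among 26748 gene identifiers, and all 33 were among the 11018 genes that reached 1 TPM, a level scaled for transcript length and library total, in at least 3 libraries and were tested. There were 4 groups of 3 libraries. The treated knockout carried a hepatic knockout of Rxra and received bexarotene, an RXR agonist, at 100 mg/kg per day for 5 days. Knockout controls carried the same knockout without bexarotene. Treated floxed mice carried the floxed gene, which is intact, and received the same dose, and floxed controls carried it without the drug. The age of the mice, the Cre driver behind the knockout and what the controls were given are not stated in the sources used here.

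During an acute phase response interleukin-6 (IL-6) binds its receptor Il6ra with the signal transducer Il6st in the hepatocyte and activates the transcription factor Stat3, while interleukin-1 (IL-1) acts through Il1r1 and NF-kB. Together with C/EBP factors these raise secreted proteins such as serum amyloid A, orosomucoid, haptoglobin and fibrinogen. In mice serum amyloid A is a major acute phase protein, while Crp responds little in this species. RXRα is the shared partner of many liver nuclear receptors, several of which are known to restrain inflammatory gene expression.

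The targeted gene, Rxra, followed the labels. It stood at 27.8, 26.1 and 26.4 TPM in treated knockout libraries 1, 2 and 3 and at 31.3, 33.1 and 26.9 TPM in knockout controls 1, 2 and 5. It stood at 82.2, 85.3 and 79.6 TPM in treated floxed libraries 1, 3 and 4 and at 79.5, 79.9 and 86.1 TPM in floxed controls 1, 3 and 4. Values of single libraries are given in this order of numbers throughout. The knockout libraries lay apart from the floxed ones without overlap. Rxra RNA remained in every knockout library, at 26.1 TPM or more, and the reason was not tested. Some libraries of a group were nearly the same: 4 of the 12 within-group pairs had a log2 spread (SD, counting noise removed) between 0.0384 and 0.0729, against 0.152 to 0.435 for the other 8. The close pairs were all those of the treated knockout and floxed controls 1 and 3. Such close sets, which differed by less than the averaging limit of 0.1 beyond sampling noise, were each counted as 1 sample with their mean, leaving n = 1 treated knockout, n = 3 knockout controls, n = 3 treated floxed samples and n = 2 floxed controls. Library depth is unknown, because TPM values do not carry read totals. The defining hepatocyte markers had summed levels of 55073 to 66891 TPM over 10 genes, which does not show each gene. Of these 10, 1 rose and 1 fell in knockout controls against floxed controls, with log2 fold changes from -1.97 to 0.90. In bulk samples fewer cells of a type and less RNA per cell cannot be told apart.

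Without drug, members of each role were higher in knockout controls than in floxed controls. Among the 8 signalling, receptor and adhesion genes Icam1 alone was called. Of these 8, 4 were positive and 4 negative in log2 fold change, with a median of 0.029. In knockout controls against floxed controls 10 of 33 members rose and none fell (limma, adjusted p under 0.05 by Benjamini-Hochberg over all tested genes), while 1.83% of all tested genes rose and 1.92% fell. The 10 were the carriers and opsonins Orm1, Orm2, Saa3 and Apcs, the haem and iron binding Hp, Hpx and Lcn2, the inhibitors Itih3 and Serpina3m and the adhesion gene Icam1. Their log2 fold changes ran between 0.82 for Orm1 and 3.46 for Lcn2. At an unadjusted p under 0.05 there were 15 members in either direction, with 17% of all tested genes. Fitted with only the 2 groups compared, 3 of the 10 were called (Saa3, Orm2 and Lcn2). The median log2 fold change of the 33 members was 0.57, against 0.0039 over all tested genes.

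Few members were called for bexarotene, which does not show that the others were unchanged. Of the 33 log2 fold changes, 24 were negative in the knockout and 23 in floxed mice. Of all tested genes, 63.3% and 58.6% were positive. In the knockout 3 members fell (Saa3, Icam1 and Itih3) and none rose, with 0.0998% of all tested genes lower and 0.417% higher. These 3 are among the 10 that rose in knockout controls, and both comparisons use the same knockout control samples. In floxed mice Il1rn rose and no member fell, with 1.84% of all tested genes higher and 0.281% lower. At an unadjusted p under 0.05 there were 10 members in the knockout, with 9.17% of all tested genes, and 10 in floxed mice, with 15.4%. Fitted with only the 2 groups compared, no member was called for the drug in the knockout and 5 were in floxed mice. The median log2 fold change of the members was -0.37 in the knockout, against 0.098 over all tested genes, and -0.35 in floxed mice, against 0.062.

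Under bexarotene the knockout differed from floxed mice at 3 members, of which Orm2 alone was also called in controls. Orm2 and Mt1 were higher and Il1rn was lower, with 0.681% of all tested genes higher and 1.25% lower. Fitted with only the 2 groups compared, Orm2 kept its call while Mt1 and Il1rn lost theirs. In that fit Apcs, Lcn2 and Serpina3m, which were also called in controls, gained a call, and no other member was called. The median of the members under the drug was 0.31, against 0.040 over all tested genes. The difference between the drug effects in the knockout and in floxed mice was called for no member by limma, and 12 had an unadjusted p under 0.05, with 9.34% of all tested genes. It was called for 0.0998% of tested genes in each direction. In all, 12 members were called in at least 1 of the 5 comparisons and 21 in none, with 5.88% of all tested genes called in at least 1. Fitted as 12 separate libraries, the same comparisons called 13 members for the knockout in controls, 12 for the drug in the knockout, 6 for the drug in floxed mice, 11 for the knockout under the drug and 12 for the difference. The shares of all tested genes called in that fit were 11.8%, 10%, 9.64%, 14.4% and 5.91%, in the same order. It counts the near-identical libraries as independent samples.

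**Figure D1:**
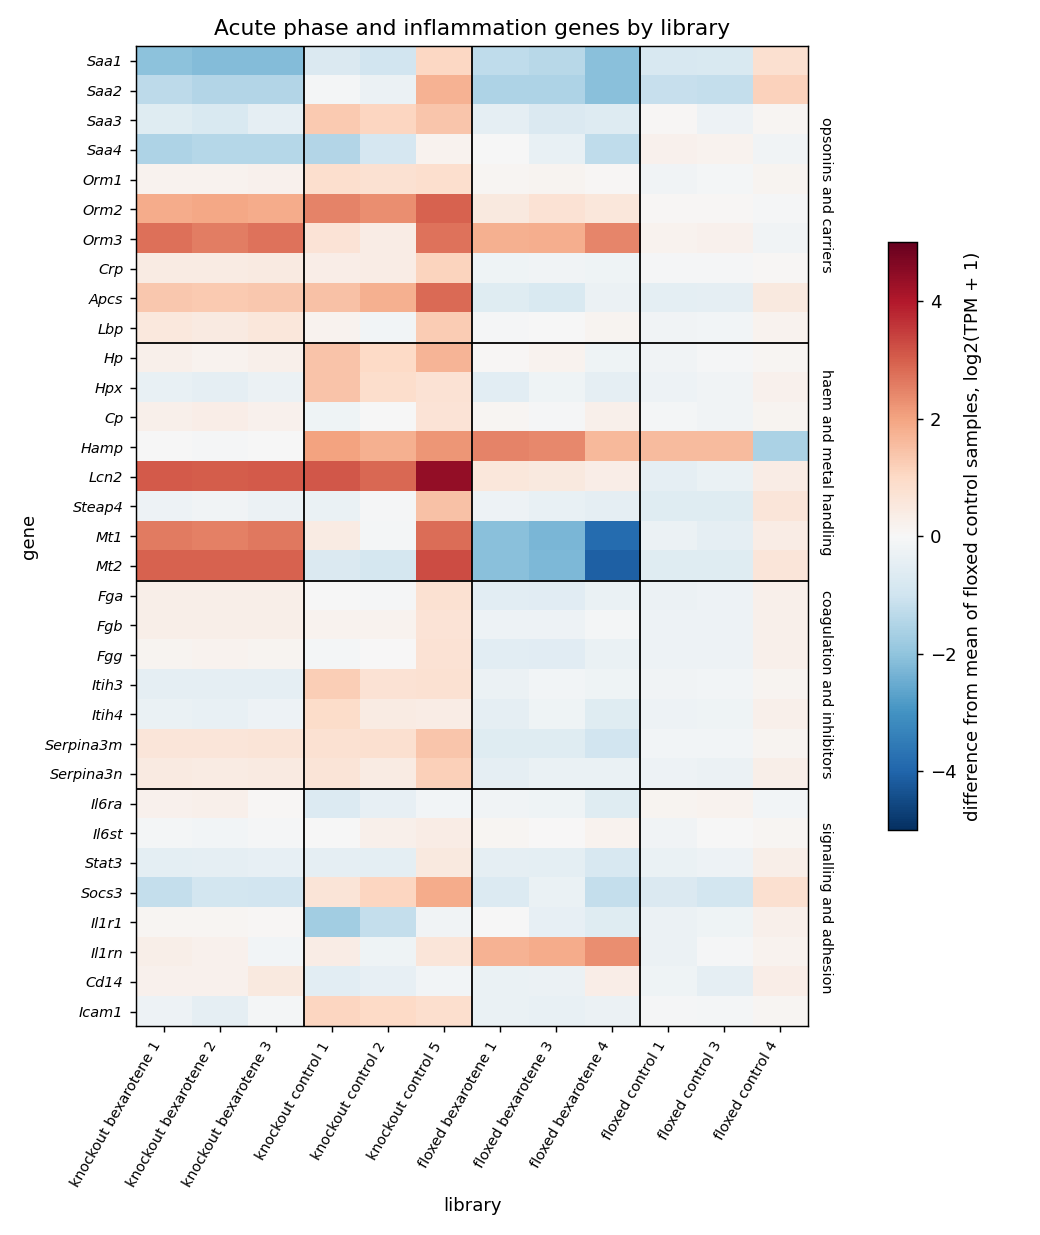
Levels of the 33 members in each of the 12 libraries, as the log2(TPM + 1) difference from the mean of the floxed control samples. Genes are grouped by role and libraries by group, and knockout control 5 and floxed control 4 stand apart from the other libraries of their groups across many genes.

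Knockout control 5 and floxed control 4 held most of the high values of their groups. Knockout control 5 was the highest of the 3 knockout controls for 28 of 33 members (84.8%), against 26.3% of all tested genes. It exceeded the mean of knockout controls 1 and 2 by a median log2 difference of 0.77 over the members, against -0.059 over all tested genes. Floxed control 4 was likewise the highest of its group for 28 members, against 47.9% of all tested genes, with a median excess of 0.40, against 0.057. The members took 2.73% to 2.82% of all TPM in treated knockout libraries, 3.38% to 5.23% in knockout controls, 1.96% to 2.32% in treated floxed libraries and 2.11% to 2.51% in floxed controls. The highest share in either control group belonged to these same libraries, knockout control 5 and floxed control 4.

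Other measures moved with these libraries. The 11 neutrophil markers summed to 8.48 to 10.6 TPM in the treated knockout, 13.5, 13.5 and 40.0 TPM in knockout controls, 5.69 to 14.0 TPM in treated floxed libraries and 20.5, 17.7 and 57.7 TPM in floxed controls. The 14 macrophage and Kupffer cell markers summed to 80.9 to 91.0 TPM, 18.9, 20.9 and 42.4 TPM, 24.1, 26.0 and 82.3 TPM, and 33.1, 37.3 and 113 TPM in the same groups. No marker was at 0 in every library, though Mpo, Elane, Camp, Cxcr2 and Mmp8 of the neutrophil list and Marco of the macrophage list stayed under 1 TPM throughout. Clock genes also differed: the mean log2 level of 6 evening genes minus that of 4 morning genes was 0.85 to 1.01 in the treated knockout, 1.94, 1.90 and -1.75 in knockout controls, 2.16 to 2.87 in treated floxed libraries and -0.69, -0.73 and -1.41 in floxed controls. None of the sources used here gives the time of collection, so a difference in time cannot be told apart from the drug in floxed mice. The same holds for the genotype in knockout controls 1 and 2 against floxed controls, while knockout control 5 was closer to the floxed controls. The part of these measures in the members' levels was not tested.

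**Figure D2:**
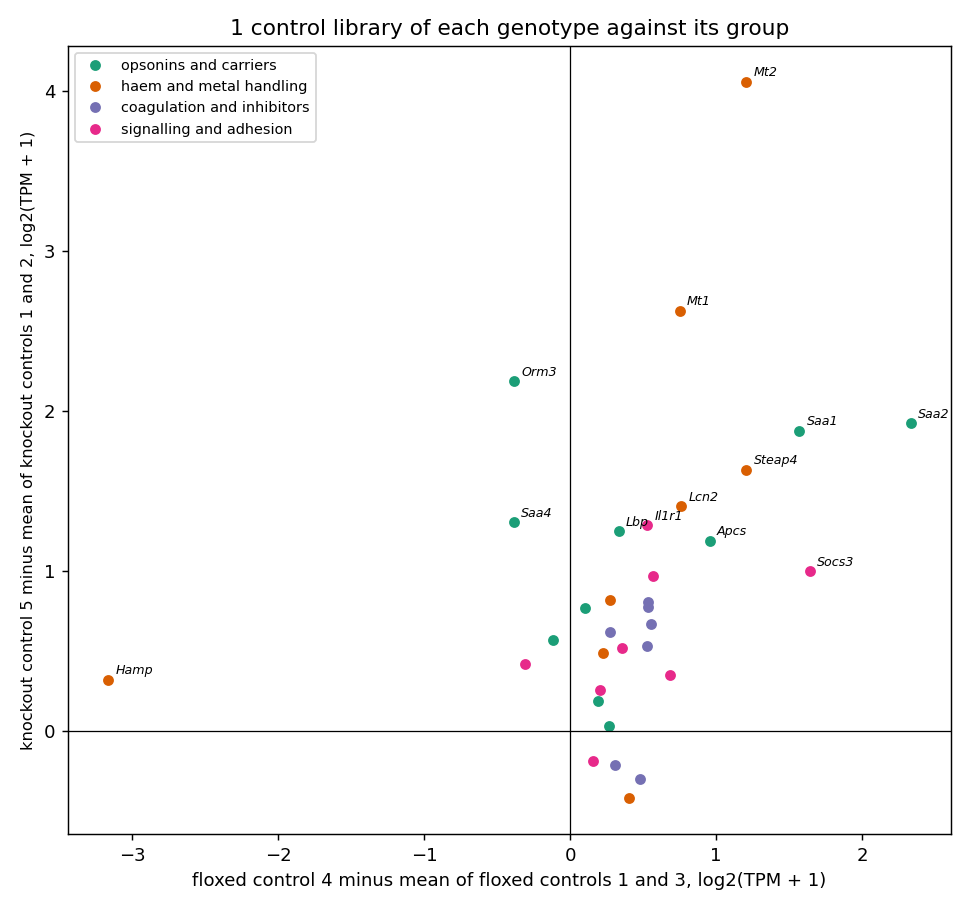
Log2 difference of each member between 1 library and the mean of the other libraries of its group, for knockout control 5 (against 1 and 2) and floxed control 4 (against 1 and 3). The median over the members was 0.77 for knockout control 5 and 0.40 for floxed control 4.

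Without both libraries, floxed controls 1 and 3, averaged, were the only floxed control sample. The log2 fold changes in knockout controls of the 10 members called with them then ran between 0.92 for Serpina3m and 3.37 for Lcn2. Hp, Hpx, Itih3 and Serpina3m then had adjusted p of 0.0757 to 0.0829. The median log2 fold change of the members was 0.17 without knockout control 5 and 0.96 without floxed control 4.

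The promoters of the members are known for elements of STAT, C/EBP and NF-kB factors. RefSeq windows (GRCm38.p6) from 250 bases before to 50 bases after the start matched 28 members with 32 windows, and none was matched for Orm1, Hp, Lbp, Serpina3m and Cd14. The full windows were searched for letters on both strands. The C/EBP letters TTNNGCAA were in 43.8% of the members' windows and 10.8% of all 32851 windows. The STAT letters TTCNNNGAA were in 25% and 8.30%. An NF-kB element was matched in 3.13% (only Steap4 among the members) and 0.807%, and the nuclear receptor letters AGGTCA in 21.9% and 16.3%. A match is only a description of letters.

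Shown here are the 250 bases before the start of 6 members, 5′ to 3′ on the gene's strand, with matches in capitals. Saa1 and Saa2 are shown as a near-identical pair whose levels stood apart in 1 library of each control group, Orm2 as the member with the firmest call, Fgb as a gene with both STAT and C/EBP letters that was not called, Icam1 for its STAT letters and Steap4 for the NF-kB letters. The windows are Saa1 at chr7:46742981-46743230 (minus strand), Saa2 at chr7:46751583-46751832 (plus), Orm2 at chr4:63362199-63362448 (plus), Fgb at chr3:83049864-83050113 (minus), Icam1 at chr9:21015690-21015939 (plus) and Steap4 at chr5:7960222-7960471 (plus).
Saa1: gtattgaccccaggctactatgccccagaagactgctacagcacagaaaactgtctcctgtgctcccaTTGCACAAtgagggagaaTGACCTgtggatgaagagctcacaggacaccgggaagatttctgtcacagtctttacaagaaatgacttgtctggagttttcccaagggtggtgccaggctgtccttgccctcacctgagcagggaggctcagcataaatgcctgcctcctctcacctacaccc
Saa2: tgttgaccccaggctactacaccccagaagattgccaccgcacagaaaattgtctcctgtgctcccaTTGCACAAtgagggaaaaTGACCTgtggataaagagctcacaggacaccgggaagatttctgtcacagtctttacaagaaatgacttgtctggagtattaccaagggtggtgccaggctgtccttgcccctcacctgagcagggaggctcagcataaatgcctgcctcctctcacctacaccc
Orm2: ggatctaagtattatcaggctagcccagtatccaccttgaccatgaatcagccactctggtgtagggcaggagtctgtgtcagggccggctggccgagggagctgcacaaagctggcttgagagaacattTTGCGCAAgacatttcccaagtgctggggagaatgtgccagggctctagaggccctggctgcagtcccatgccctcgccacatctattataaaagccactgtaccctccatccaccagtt
Fgb: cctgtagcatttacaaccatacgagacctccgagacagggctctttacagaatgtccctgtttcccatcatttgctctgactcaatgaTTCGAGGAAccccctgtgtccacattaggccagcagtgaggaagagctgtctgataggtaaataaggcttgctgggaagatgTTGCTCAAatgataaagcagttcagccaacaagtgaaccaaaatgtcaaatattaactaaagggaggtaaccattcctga
Icam1: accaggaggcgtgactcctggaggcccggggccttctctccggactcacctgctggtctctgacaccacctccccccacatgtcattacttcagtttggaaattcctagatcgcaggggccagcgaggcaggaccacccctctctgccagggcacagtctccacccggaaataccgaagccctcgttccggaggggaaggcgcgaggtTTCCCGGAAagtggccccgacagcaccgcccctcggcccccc
Steap4: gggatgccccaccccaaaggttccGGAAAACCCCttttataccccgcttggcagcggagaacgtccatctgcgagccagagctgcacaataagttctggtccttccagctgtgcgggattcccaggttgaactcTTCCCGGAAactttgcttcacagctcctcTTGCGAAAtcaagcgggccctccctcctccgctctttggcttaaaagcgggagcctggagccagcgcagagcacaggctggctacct
In the Saa1 and Saa2 windows the first capitals are the C/EBP letters and the second, TGACCT, are AGGTCA, both read on the other strand. The Orm2 capitals are the C/EBP letters. The Fgb window has the STAT letters first and the C/EBP letters, on the other strand, after them. Steap4 has NF-kB letters on the other strand, then STAT letters, then C/EBP letters on the other strand. Icam1 has STAT letters. The Saa1 and Saa2 windows were 95.6% identical over 249 aligned bases, and their coding sequences 95.1%, so reads may be split between the 2 genes and their separate values are uncertain.

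The serum amyloid A genes differed among themselves. Saa3, which is made by macrophages as well as by liver cells in mice, stood at 10.2, 9.04 and 11.4 TPM in the treated knockout and 41.3, 34.3 and 42.9 TPM in knockout controls. It stood at 11.3, 9.39 and 9.91 TPM in treated floxed libraries and 16.8, 13.2 and 17.1 TPM in floxed controls. All 3 knockout controls lay above every other library. Saa3 rose in knockout controls by a log2 fold change of 1.24 ± 0.15 (± SE, adjusted p = 0.00402, limma) and fell by 1.85 ± 0.19 with bexarotene in the knockout (adjusted p = 0.00556). The fall kept its call in the 8 fits that left out 1 sample each, none of them of the treated knockout, and lost it with only the 2 groups compared (adjusted p = 0.136). The rise lost its call without floxed controls 1 and 3 (adjusted p = 0.0555). Under the drug the difference between genotypes did not pass (adjusted p = 0.997). The macrophage marker sum was 80.9 to 91.0 TPM in the treated knockout, 18.9 to 42.4 TPM in knockout controls and 33.1 to 113 TPM in floxed controls, and its part in the level of Saa3 was not tested.

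Saa1 and Saa2, the major circulating serum amyloid A proteins, had 1 high library in each control group. Saa1 stood at 111, 103 and 102 TPM in the treated knockout and 283, 239 and 956 TPM in knockout controls. It stood at 192, 176 and 110 TPM in treated floxed libraries and 270, 272 and 806 TPM in floxed controls. Each drug-treated library lay below every control of the same genotype. Saa2 stood at 63.4, 57.9 and 58.2 TPM in the treated knockout, 150, 132 and 535 TPM in knockout controls, 54.4, 54.7 and 36.9 TPM in treated floxed libraries and 72.0, 69.9 and 362 TPM in floxed controls. The same order held for Saa2. With bexarotene the log2 fold change of Saa1 was -1.92 ± 0.81 in the knockout and -1.59 ± 0.64 in floxed mice, and that of Saa2 -1.86 ± 0.94 and -1.72 ± 0.75. None of these passed (adjusted p = 0.294 to 0.628, limma). Without knockout control 5 and floxed control 4 the values were -1.29 and -0.80 for Saa1 and -1.22 and -0.56 for Saa2, and none passed. Saa4, the constitutive member of the family, ranged between 132 and 445 TPM over the 12 libraries and was called nowhere.

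**Figure D3:**
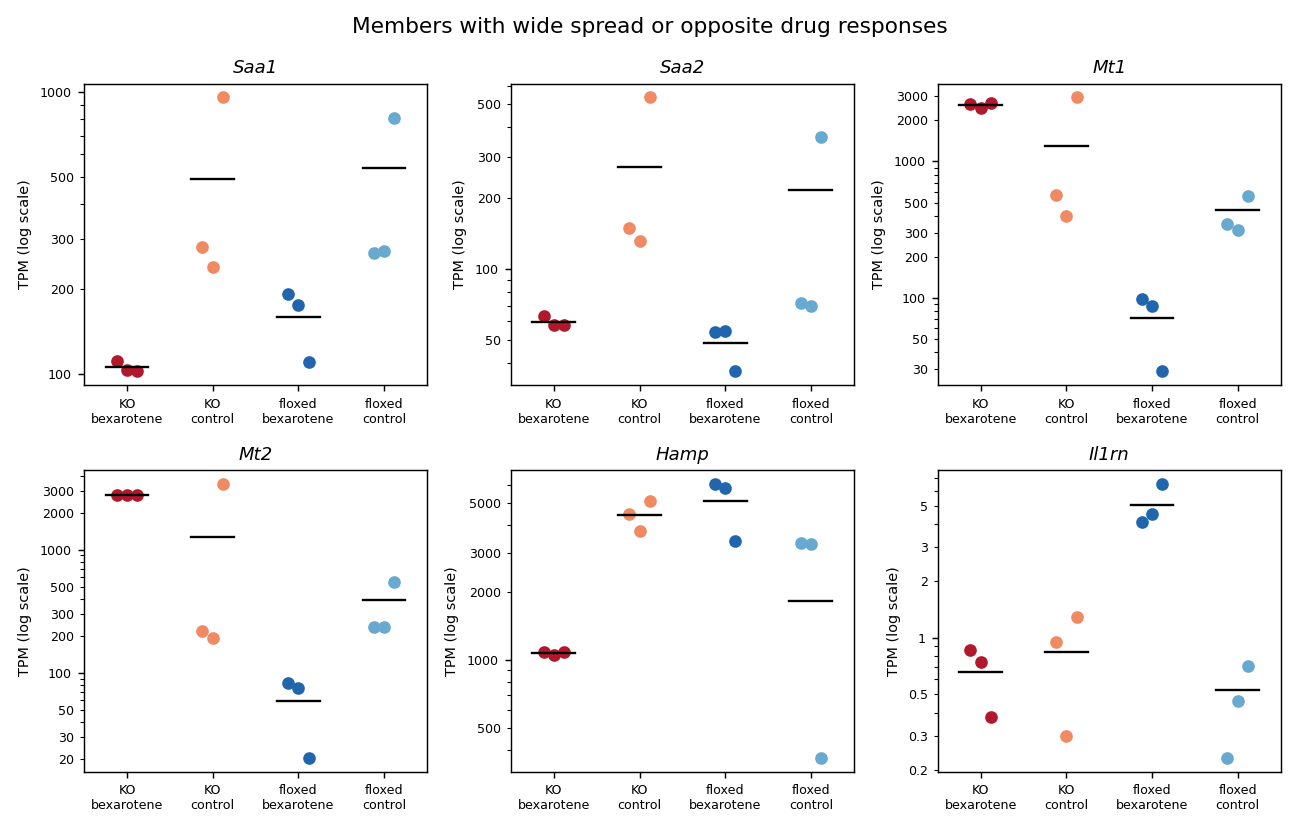
TPM of Saa1, Saa2, Mt1, Mt2, Hamp and Il1rn in each library (points, log axis), with the mean over the samples of each group (lines; floxed controls 1 and 3 are averaged first). Knockout control 5 stands above the other knockout controls for Saa1, Saa2, Mt1 and Mt2, and floxed control 4 stands below the other floxed controls for Hamp.

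The orosomucoid genes, which encode plasma carriers of small molecules, rose together in knockout controls for Orm1 and Orm2. Orm2 stood at 227, 237 and 226 TPM in the treated knockout and 348, 309 and 486 TPM in knockout controls. It stood at 87.2, 101.6 and 92.0 TPM in treated floxed libraries and 63.8, 64.6 and 59.1 TPM in floxed controls. Every knockout library exceeded every floxed library. Orm2 was higher in the knockout by 2.58 ± 0.19 in controls (adjusted p = 3.05e-04, limma) and by 1.29 ± 0.24 under bexarotene (adjusted p = 0.0362). The call in controls was kept in all 8 fits that left out 1 sample (floxed controls 1 and 3 counting as 1). The call under the drug was lost in 5 of 8 such fits, those without a floxed sample, treated or control (adjusted p = 0.0746 to 0.127). Reads of the 3 orosomucoid genes may be split, as their coding sequences were 86.5% to 89.9% identical.

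Orm1, the most abundant of the carriers, stood at 1788, 1786 and 1808 TPM in the treated knockout, 2823, 2674 and 2806 TPM in knockout controls, 1658, 1700 and 1621 TPM in treated floxed libraries and 1395, 1456 and 1711 TPM in floxed controls. The knockout controls lay above all other libraries. Orm1 rose in them by 0.82 ± 0.12 (adjusted p = 0.00875, limma), a call lost without floxed controls 1 and 3 (adjusted p = 0.101). Orm3 stood at 45.3, 39.3 and 44.7 TPM in the treated knockout, 10.2, 7.86 and 44.3 TPM in knockout controls, 22.6, 23.5 and 36.3 TPM in treated floxed libraries and 6.72, 7.10 and 5.06 TPM in floxed controls. Both treated groups were high, and so was knockout control 5 alone among the controls. The log2 fold change of Orm3 with the drug was 1.42 ± 0.77 in the knockout (adjusted p = 0.667) and 2.01 ± 0.61 in floxed mice (adjusted p = 0.166). Without knockout control 5 and floxed control 4 it was 2.15 in the knockout (adjusted p = 0.0487).

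The pentraxins Apcs and Crp recognise microbial and damaged surfaces, and serum amyloid P, the product of Apcs, is the one that responds strongly in mice. Apcs stood at 311, 301 and 312 TPM in the treated knockout and 340, 420 and 862 TPM in knockout controls. It stood at 79.5, 71.8 and 98.0 TPM in treated floxed libraries and 85.8, 87.4 and 169 TPM in floxed controls. All 6 knockout libraries lay above all 6 floxed ones. Apcs rose in knockout controls by 2.03 ± 0.41 (adjusted p = 0.0331, limma), and the difference under the drug was 1.89 ± 0.52 (adjusted p = 0.142). The call in controls was kept without knockout control 1 or 5 and without both doubted libraries (adjusted p = 0.0173), and was lost in the 6 other fits that left out a sample (adjusted p = 0.0533 to 0.234).

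Crp stood at 433, 438 and 448 TPM in the treated knockout, 410, 420 and 706 TPM in knockout controls, 284, 291 and 282 TPM in treated floxed libraries and 315, 319 and 341 TPM in floxed controls. The knockout libraries were all higher, but Crp was not called (log2 fold change 0.59 ± 0.22 in controls, adjusted p = 0.225). Lbp, which presents lipopolysaccharide to Cd14, ranged between 57.2 and 158 TPM, highest in knockout control 5, and was called nowhere.

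**Figure D4:**
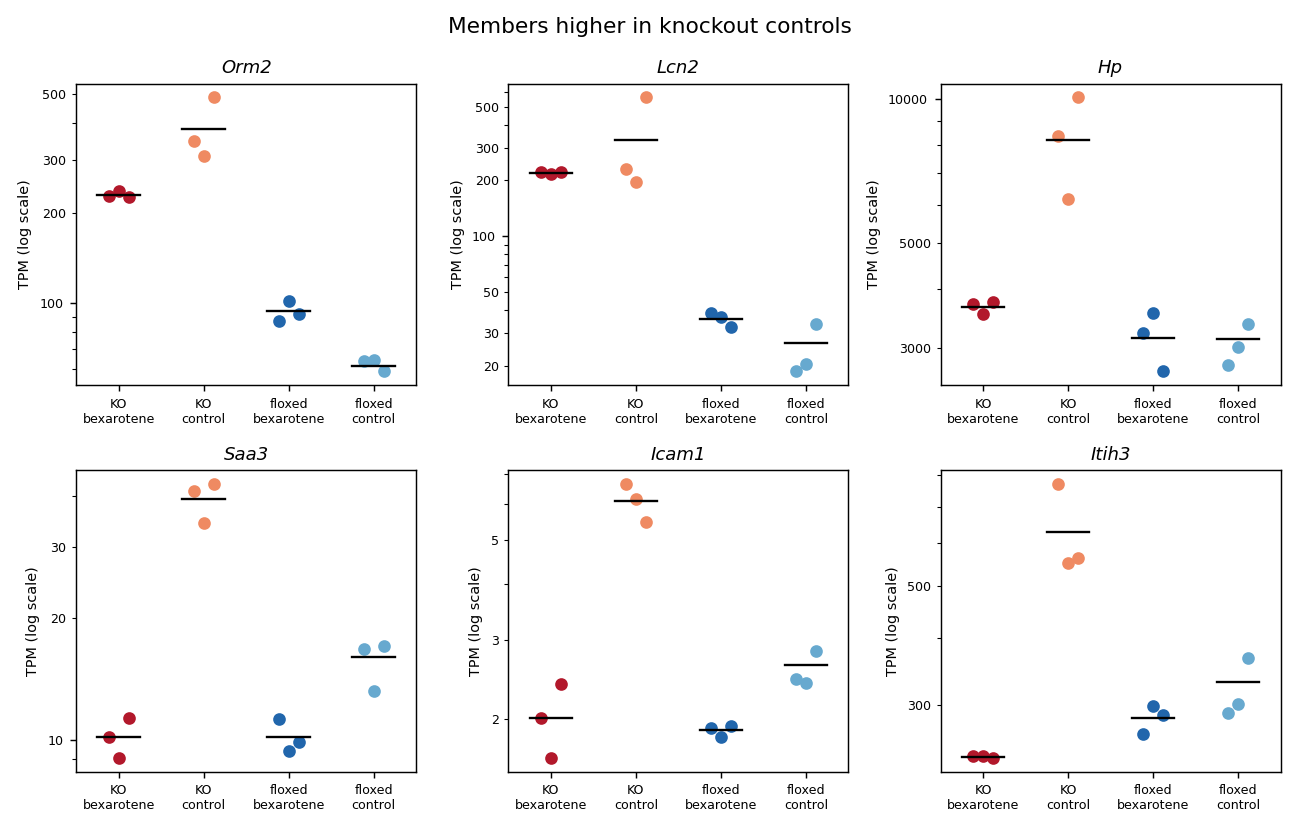
TPM in each library (points, log axis) of Orm2, Lcn2, Hp, Saa3, Icam1 and Itih3, chosen from the members that rose in knockout controls. Lines show the mean over the samples of each group, with floxed controls 1 and 3 and the treated knockout libraries averaged. In every panel the 3 knockout controls lie above the 3 floxed controls.

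Among the haem and metal genes Lcn2 had the largest fold change in knockout controls of the members called. Lcn2 encodes lipocalin 2, which withholds iron from bacteria by binding their siderophores. It stood at 222, 217 and 222 TPM in the treated knockout and 230, 195 and 562 TPM in knockout controls. It stood at 38.7, 36.4 and 32.3 TPM in treated floxed libraries and 18.6, 20.5 and 33.8 TPM in floxed controls. Every knockout library exceeded every floxed library. Lcn2 rose in knockout controls by 3.46 ± 0.42 (adjusted p = 0.00402, limma), and by 2.99 without knockout control 5 (adjusted p = 0.00105). The call was lost without floxed controls 1 and 3 (adjusted p = 0.0534). Under bexarotene the difference was 2.59 ± 0.53 (adjusted p = 0.0564). Lcn2 is also a neutrophil gene. The neutrophil marker sum was 13.5 to 40.0 TPM in knockout controls and 17.7 to 57.7 TPM in floxed controls, and its part in the level of Lcn2 was not tested.

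Hp and Hpx encode haptoglobin and hemopexin, which clear free haemoglobin and haem and were the most abundant members of this class. Hp stood at 3707, 3532 and 3760 TPM in the treated knockout, 8388, 6178 and 10091 TPM in knockout controls, 3226, 3549 and 2683 TPM in treated floxed libraries and 2768, 3012 and 3372 TPM in floxed controls. Hpx stood at 3404, 3220 and 3586 TPM in the treated knockout, 11531, 8041 and 7183 TPM in knockout controls, 3054, 3719 and 3144 TPM in treated floxed libraries and 3668, 3890 and 5001 TPM in floxed controls. For both genes the knockout controls stood above all other libraries, and for Hpx knockout control 5 was the lowest of them. In knockout controls Hp rose by 1.37 ± 0.22 (adjusted p = 0.014, limma) and Hpx by 1.01 ± 0.22 (adjusted p = 0.0489). The call of Hp was lost without floxed controls 1 and 3 (adjusted p = 0.126) or without floxed control 4 (adjusted p = 0.0867). Hpx kept its call only without knockout control 5 (adjusted p = 0.027), with adjusted p of 0.0537 to 0.297 in the 7 other fits. With bexarotene in the knockout the log2 fold changes were -1.14 ± 0.28 for Hp (adjusted p = 0.176) and -1.36 ± 0.28 for Hpx (adjusted p = 0.106).

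The metallothioneins Mt1 and Mt2 bind zinc and copper and are also induced by glucocorticoids. Mt1 stood at 2615, 2442 and 2657 TPM in the treated knockout and 571, 399 and 2947 TPM in knockout controls. It stood at 99.0, 87.3 and 29.0 TPM in treated floxed libraries and 349, 314 and 557 TPM in floxed controls. The treated floxed libraries were the lowest of all, while the treated knockout and knockout control 5 were the highest. Under bexarotene Mt1 was higher in the knockout by 5.32 ± 1.06 (adjusted p = 0.0488, limma). That call was kept without knockout control 5 (adjusted p = 0.00781) and lost in the 7 other fits that left out a sample (adjusted p = 0.0543 to 0.106).

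Mt2 stood at 2768, 2774 and 2798 TPM in the treated knockout, 218, 192 and 3421 TPM in knockout controls, 83.6, 75.1 and 20.3 TPM in treated floxed libraries and 236, 235 and 544 TPM in floxed controls. Knockout control 5 was 16.7-fold above the mean of knockout controls 1 and 2, the widest gap among the members in that group. The difference of Mt2 between genotypes under the drug was 5.75 ± 1.52 (adjusted p = 0.128), and without knockout control 5 and floxed control 4 it was called (adjusted p = 0.0225). The drug's effect on Mt1 was 1.55 ± 1.06 in the knockout and -2.75 ± 0.84 in floxed mice, and neither passed.

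Hamp encodes hepcidin, the hormone that blocks iron export and that IL-6 raises through STAT3. It stood at 1086, 1057 and 1091 TPM in the treated knockout and 4469, 3737 and 5094 TPM in knockout controls. It stood at 6069, 5820 and 3373 TPM in treated floxed libraries and 3333, 3269 and 367 TPM in floxed controls. Floxed control 4 was at 0.11 of the mean of floxed controls 1 and 3, the one library of its group in which Saa1, Saa2 and Socs3 were highest. With bexarotene Hamp was lower in every treated knockout library than in any knockout control (log2 fold change -2.03 ± 0.96, adjusted p = 0.598) and higher in every treated floxed library than in any floxed control (2.16 ± 0.76, adjusted p = 0.223, limma). The effect in floxed mice was 0.58 without floxed control 4. Mice carry a close copy, Hamp2, so reads may be split. Cp, the copper-carrying ferroxidase ceruloplasmin, ranged between 484 and 910 TPM and Steap4, a metalloreductase, between 27.5 and 118 TPM. Both were highest in knockout control 5 and were called nowhere.

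Among inhibitors and clotting proteins, Itih3 and Serpina3m rose in knockout controls and the fibrinogen chains were not called. Itih3 encodes a heavy chain of inter-alpha-trypsin inhibitor, which is linked to hyaluronan in the matrix. It stood at 241, 241 and 239 TPM in the treated knockout and 771, 551 and 563 TPM in knockout controls. It stood at 265, 299 and 287 TPM in treated floxed libraries and 291, 301 and 366 TPM in floxed controls. Knockout controls were the highest and the treated knockout the lowest, with no overlap with other groups. Itih3 rose in knockout controls by 0.91 ± 0.17 (adjusted p = 0.0283, limma) and fell by 1.37 ± 0.22 with the drug in the knockout (adjusted p = 0.0473). Leaving out 1 sample at a time kept the rise in 3 of 8 fits (without treated floxed 4, knockout control 1 or knockout control 5) and lost it in the others (adjusted p = 0.0536 to 0.216). It kept the fall in 2 of 8 (without knockout control 1 or 5) and lost it in the others (adjusted p = 0.0737 to 0.115). Itih4, a related protein, ranged between 733 and 2105 TPM, and its rise of 0.57 ± 0.22 did not pass (adjusted p = 0.231).

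Serpina3m and Serpina3n, relatives of human antichymotrypsin, had coding sequences 85.2% identical. Serpina3m stood at 498, 489 and 500 TPM in the treated knockout and 554, 560 and 853 TPM in knockout controls. It stood at 213, 212 and 168 TPM in treated floxed libraries and 292, 296 and 355 TPM in floxed controls. All knockout libraries exceeded all floxed ones. In knockout controls Serpina3m rose by 0.99 ± 0.22 (adjusted p = 0.0472, limma), and under the drug the difference was 1.33 ± 0.27 (adjusted p = 0.0553). The call in controls was kept only without knockout control 1 or 5 and lost in the 6 other fits (adjusted p = 0.0557 to 0.276). Serpina3n ranged between 224 and 688 TPM and was called nowhere.

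The fibrinogen chains Fga, Fgb and Fgg form the clot and were not called in any comparison. Fga stood at 3429, 3430 and 3428 TPM in the treated knockout, 2812, 2723 and 4828 TPM in knockout controls, 1950, 1904 and 2233 TPM in treated floxed libraries and 2315, 2377 and 3395 TPM in floxed controls. Fgg stood at 2966, 2983 and 2977 TPM in the treated knockout, 2493, 2709 and 4434 TPM in knockout controls, 1879, 1824 and 2116 TPM in treated floxed libraries and 2215, 2230 and 3216 TPM in floxed controls. In both control groups 1 library, knockout control 5 or floxed control 4, stood above the others, and without it the groups were narrow. Fgb followed between 1071 and 2092 TPM. Between knockout and floxed controls the log2 fold changes of the 3 chains were 0.24 ± 0.27, 0.34 ± 0.21 and 0.22 ± 0.26 for Fga, Fgb and Fgg (adjusted p = 0.475 to 0.759, limma).

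The receptors and signalling genes were low by comparison. Icam1, the adhesion molecule that leukocytes bind, stood at 2.01, 1.64 and 2.40 TPM in the treated knockout and 6.65, 6.16 and 5.49 TPM in knockout controls. It stood at 1.91, 1.83 and 1.93 TPM in treated floxed libraries and 2.46, 2.41 and 2.83 TPM in floxed controls. The 3 knockout controls lay above all others. Icam1 rose in knockout controls by 0.97 ± 0.14 (adjusted p = 0.0105, limma) and fell by 1.23 ± 0.18 with bexarotene in the knockout (adjusted p = 0.0352). The rise was lost without floxed controls 1 and 3 (adjusted p = 0.116) or without floxed control 4 (adjusted p = 0.0769). The fall was kept only without knockout control 5 (adjusted p = 0.0174) and lost in the 7 other fits (adjusted p = 0.0574 to 0.118).

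Il1rn, the secreted antagonist of the IL-1 receptor, was the member that rose with the drug in floxed mice. It stood at 0.86, 0.74 and 0.38 TPM in the treated knockout and 0.95, 0.30 and 1.28 TPM in knockout controls. It stood at 4.10, 4.51 and 6.50 TPM in treated floxed libraries and 0.23, 0.46 and 0.71 TPM in floxed controls. No treated floxed library overlapped any other. Il1rn rose by 1.97 ± 0.28 with the drug in floxed mice (adjusted p = 0.0131, limma) and was lower by a log2 fold change of -1.84 ± 0.36 in the knockout under the drug (adjusted p = 0.0427). Most values lie near the pseudocount of 1 TPM, so these fold changes understate the ratio. Il1rn reached 1 TPM only in the treated floxed libraries and knockout control 5, so it was tested because of the group where it was high. With no filter the rise lost its call (adjusted p = 0.0682, limma), and so did the difference under the drug. A pseudocount of 0.1 TPM kept the call of the rise and lost that of the difference. The rise was lost without floxed controls 1 and 3 (adjusted p = 0.119), floxed control 4 (adjusted p = 0.0874) or treated floxed 3 (adjusted p = 0.0507). The difference under the drug was lost in 6 of 8 such fits, the exceptions being those without knockout control 2 or 5 (adjusted p = 0.0543 to 0.109). The difference between the drug effects was -2.08 ± 0.45 (adjusted p = 0.192). Macrophages also express Il1rn, and the macrophage marker sum was 24.1, 26.0 and 82.3 TPM in treated floxed libraries against 33.1, 37.3 and 113 TPM in floxed controls. Its part in the level of Il1rn was not tested.

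Socs3, the feedback inhibitor that STAT3 induces, stood at 0.66, 0.98 and 0.93 TPM in the treated knockout and 4.81, 6.84 and 12.5 TPM in knockout controls. It stood at 1.33, 1.99 and 0.62 TPM in treated floxed libraries and 1.27, 0.98 and 5.61 TPM in floxed controls. Knockout controls exceeded the treated knockout in every library, and floxed control 4 overlapped them. The log2 fold change of Socs3 with the drug in the knockout was -2.19 ± 0.66 (adjusted p = 0.29, limma), and in knockout against floxed controls it was 1.18 ± 0.52 (adjusted p = 0.299). Stat3 stood at 22.4, 23.5 and 23.9 TPM in the treated knockout, 23.2, 22.6 and 45.8 TPM in knockout controls, 23.1, 22.8 and 17.8 TPM in treated floxed libraries and 25.5, 26.8 and 39.2 TPM in floxed controls. Only the control libraries 5 and 4 stood out, and Stat3 was called nowhere.

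The receptors were called in no comparison with all 9 samples. Il6ra stood at 15.4, 15.9 and 13.9 TPM in the treated knockout, 7.75, 9.78 and 11.99 TPM in knockout controls, 11.6, 11.2 and 8.22 TPM in treated floxed libraries and 14.6, 14.9 and 11.7 TPM in floxed controls. Il6ra was higher with the drug in every knockout library and lower in every floxed one. Il1r1 stood at 19.3, 19.2 and 19.0 TPM in the treated knockout, 4.73, 7.31 and 15.8 TPM in knockout controls, 17.7, 13.2 and 11.4 TPM in treated floxed libraries and 14.5, 15.2 and 21.8 TPM in floxed controls. Knockout controls 1 and 2 were the lowest for Il1r1. Without knockout control 5, Il1r1 was called lower in knockout controls than in floxed controls. Its log2 fold change with the drug was 1.12 ± 0.52 in the knockout (adjusted p = 0.592, limma) and -0.35 ± 0.41 in floxed mice (adjusted p = 0.749).

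Cd14, the lipopolysaccharide co-receptor of macrophages, stood at 0.93, 0.94 and 1.37 TPM in the treated knockout, 0.16, 0.25 and 0.53 TPM in knockout controls, 0.32, 0.38 and 1.10 TPM in treated floxed libraries and 0.44, 0.21 and 1.12 TPM in floxed controls. Its high libraries were those with the highest macrophage marker sums, whose part in its level was not tested. Il6st ranged between 9.74 and 14.6 TPM and was called nowhere.

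**Figure D5:**
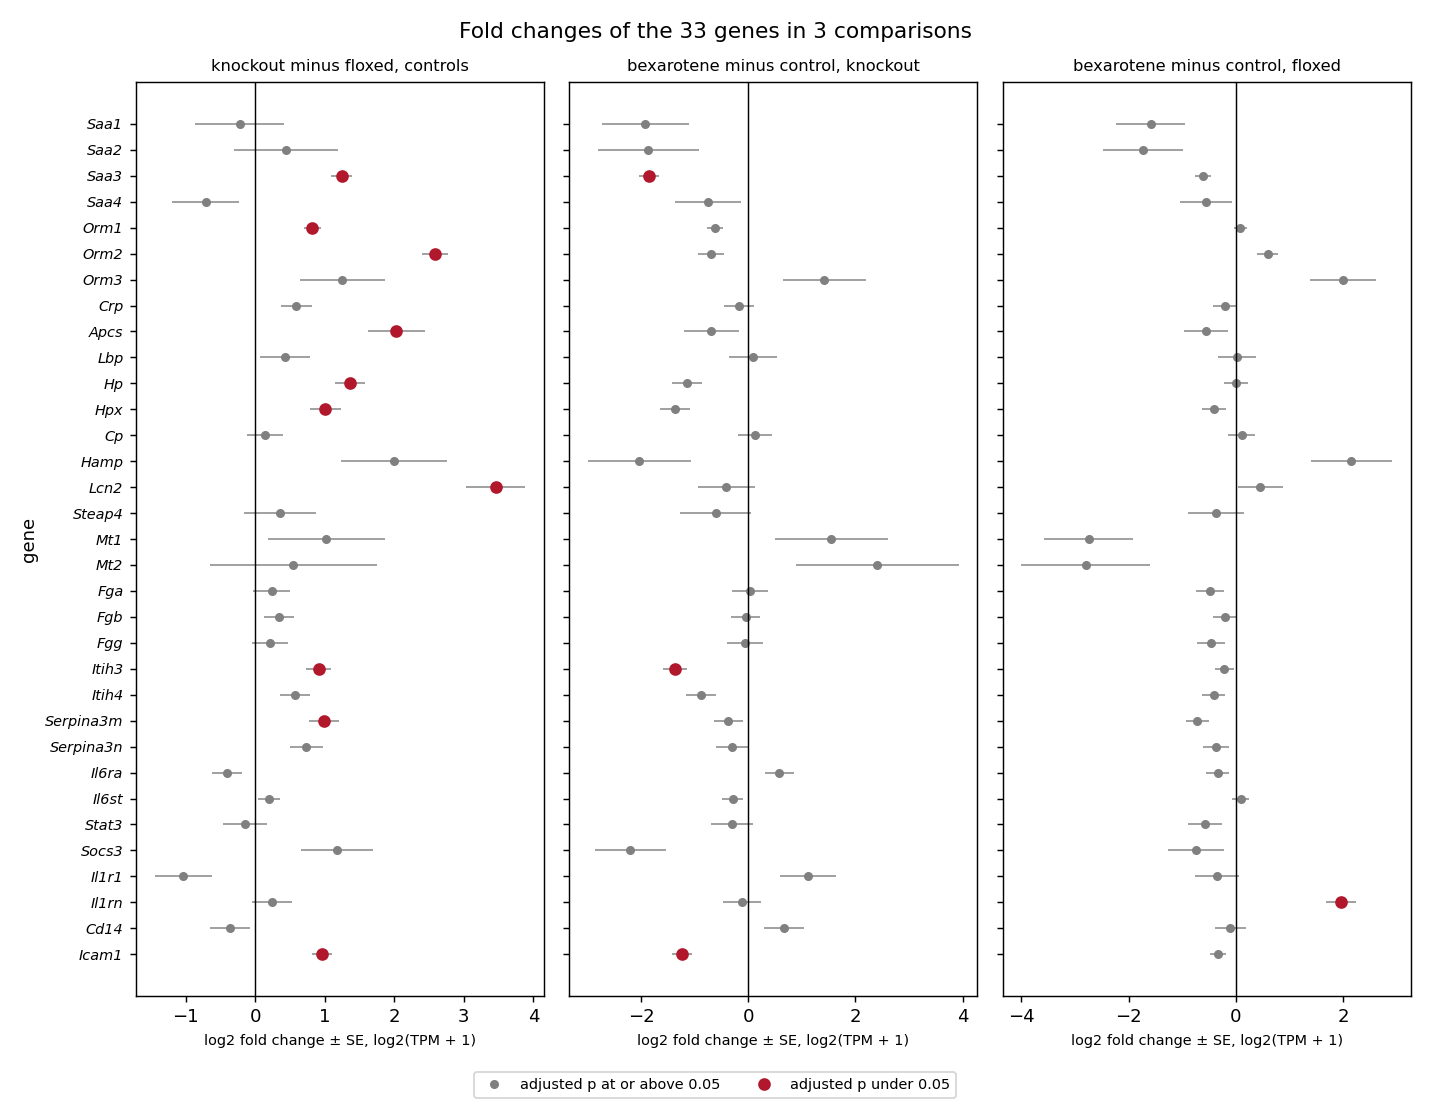
Log2 fold change (log2(TPM + 1) scale) ± SE of the 33 members in knockout against floxed controls, bexarotene against control in the knockout, and bexarotene against control in floxed mice. Red points have an adjusted p under 0.05 (10, 3 and 1 members), and grey points do not.

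Other genes of the same pathways were counted in the same fit, with no test against the members. Of 26 tested genes that cytokines also induce in liver, Serpina10 rose in knockout controls (log2 fold change 0.95 ± 0.17, adjusted p = 0.0196, limma) and none was called elsewhere. The abundant C3, a complement protein, averaged 3268 TPM in knockout controls and 2306 TPM in floxed controls and was not called. Of 23 tested components of IL-6, IL-1 and NF-kB signalling, the cytokine signalling suppressors Socs2 and Cish, which STAT5 induces, rose in knockout controls by 2.03 ± 0.28 (adjusted p = 0.0076) and 2.98 ± 0.66 (adjusted p = 0.0484). Socs2 was also higher in the knockout under the drug (2.09 ± 0.36, adjusted p = 0.0266). The cytokine gene Il6 was listed at 0 in every library other than treated knockout 1 and 3.

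Some plasma proteins, the negative acute phase proteins, fall during an acute phase response. Of 14 genes for such proteins, Ttr, Fetub, Apoa1 and Apoa4 rose in knockout controls and none fell. Ttr, which carries thyroid hormone and retinol-binding protein, averaged 10136 TPM in knockout controls and 5398 TPM in floxed controls (0.90 ± 0.15, adjusted p = 0.0151, limma). Under the drug Ttr and Apoa4 were higher in the knockout, by 1.17 ± 0.19 (adjusted p = 0.0184) and 4.12 ± 0.43 (adjusted p = 0.00298). Albumin, from Alb, averaged 33602 TPM in knockout controls and 42413 TPM in floxed controls and was not called. Of 8 tested chemokine and adhesion genes, Cxcl12 and Ccl9 rose in knockout controls by 0.78 ± 0.14 (adjusted p = 0.0203) and 1.41 ± 0.23 (adjusted p = 0.0157). Neither drug comparison called a gene of these 4 lists.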

How the data were processed

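RNA of hepatocytes from 4 groups of 3 samples was sequenced. Per the submitters' processing notes, reads were processed with fastp, HISAT2 and StringTie, with no versions stated. The sources used here name no genome build. Values are TPM per gene as the authors deposited them. Whether counting used strand is not stated, and the depth is unknown, so no counting interval was computed. The columns number the libraries differently from the sample titles, so they were assigned to groups only and are named by column number. The labels do not say that samples came from separate animals, so p-values cover the spread among these samples alone, and that may be technical.

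Within each group, libraries whose log2 difference beyond counting noise had an SD under 0.1 (over genes of at least 10 TPM) were averaged, which left 9 samples. Testing took the genes that reached 1 TPM in 3 or more libraries. The 4 groups entered 1 limma model (limma 3.58.1, R 4.3.3) of log2(TPM + 1), with lmFit and contrasts.fit and then eBayes with a trend (5 residual and 3.22 prior degrees of freedom), and with Benjamini-Hochberg adjustment over all tested genes. "Called", "rose" and "fell" mean an adjusted p under 0.05. The treated knockout, with 1 sample, takes its spread from the other groups. Comparisons of one control group with 2 others share its samples and are not independent.

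The members, lists and tests were chosen with earlier results of these data known. Library values are given for members called in any comparison, the 2 highest in TPM of each role, members with a range of at least 4-fold within a group, and Saa1 and Il6ra, chosen after their values were seen. From each list up to 4 called genes per comparison are named, otherwise the most abundant. Clock genes and the gene Il6 were also chosen later. Coding identity was computed from the reference transcripts and promoter windows came from RefSeq. Alternatives were 12 separate libraries, a pseudocount of 0.1 TPM, no filter, quantile normalization, a fit to only the groups compared, and leaving out samples.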

Additional observations from a re-analysis of the deposited data

Results flagged for a closer look

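For 3 members every treated knockout library lay to one side of the knockout controls. Every treated floxed library lay to the opposite side of the floxed controls. The treated knockout libraries counted as 1 sample, and so did floxed controls 1 and 3. No drug effect on these 3 members was called in either genotype. The effect in the knockout minus that in floxed mice was -1.29 ± 0.31 on the log2 scale for Orm2, which was lower with the drug in all 3 treated knockout libraries and higher in all 3 treated floxed libraries. It was -4.19 ± 1.22 for Hamp, in the same directions. It was 0.92 ± 0.35 for Il6ra, which was higher with the drug in the knockout and lower in floxed mice. The difference itself was tested by limma and did not pass for any of the 3 (adjusted p = 0.235 for Orm2, 0.342 for Hamp and 0.469 for Il6ra). With 12 separate libraries all 3 passed (adjusted p = 0.00472, 0.0441 and 0.0367, limma). That fit counts the near-identical libraries as independent samples, so its p-values overstate the evidence. The 3 members had also been picked for their opposite directions. Without knockout control 5 and floxed control 4 none passed, the values being -1.04, -2.50 and 1.21. Orm2 passed without knockout control 5 alone (-1.10, adjusted p = 0.0385) and Hamp without floxed controls 1 and 3 (-5.77, adjusted p = 0.0124).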

How the results depend on the processing

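As reported, the drug called 1 member and 234 genes in floxed mice and 3 members and 57 genes in the knockout, the knockout called 10 members and 414 genes in controls and 3 members and 213 genes under the drug, and the difference called 0 members and 22 genes. In that order of comparisons, every library as a separate sample gave 1062, 1105, 1302, 1589 and 651 genes, and 6, 12, 13, 11 and 12 members. With no filter the genes were 140, 875, 231, 1041 and 689, and the members 0, 3, 5, 1 and 1. A pseudocount of 0.1 TPM left 1 member for the knockout under the drug. Fitted with only the groups compared, the drug called 614 genes and 5 members in floxed mice and 6 genes and 0 members in the knockout, and the knockout called 158 genes and 3 members in controls. Without floxed control 4 and knockout control 5, which was chosen after seeing the data, the genes were 88, 151, 239, 315 and 69 and the members 0, 3, 6, 7 and 0.

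Leaving out each sample in turn gave 43 to 553 genes and 0 to 5 members for the drug in floxed mice, and 22 to 249 genes and 1 to 5 members for the drug in the knockout. It gave 100 to 761 genes and 2 to 11 members for the knockout in controls, 103 to 435 genes and 0 to 8 members for the knockout under the drug, and 6 to 210 genes and 0 to 3 members for the difference. The highest number of genes in each of the 5 came without knockout control 5. The members' median log2 fold change ran from -0.47 to -0.088, from -0.48 to -0.077, from 0.17 to 0.96, from 0.24 to 0.32 and from -0.48 to 0.29 in that order, and the last changed sign without floxed controls 1 and 3 (0.15) and without knockout control 5 (0.29). The cause of these changes was not tested. Leaving out samples of groups not compared was added after seeing the data, and the treated knockout, being 1 sample, could not be left out. Of the members' log2 fold changes under all alternatives, 2029 kept their call or moved within their error, 95 lost a call, 73 gained one and 80 without a call moved by more than their error. No paired analysis was possible because the columns do not carry the replicate numbers of the sample titles. TPM without read totals limits what can be said of members near 1 TPM, such as Cd14, Il1rn and Socs3.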
